A study of Mus musculus with 6 samples.

Results

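The genes described here are 10 extracellular antagonists, intracellular brakes and transcriptional targets of the Wnt pathway, namely Sfrp1, Sfrp2, Wif1, Dkk2, Dkk3, Apcdd1, Axin2, Nkd1, Nkd2 and Tcf7. They were taken by symbol from the deposited gene table, where each of the 10 had 1 row among 23358. The RNA came from MC3T3-E1, a mouse pre-osteoblast line derived from calvaria of the C57BL/6 background, which all samples share. The NU7441 group (3 samples) had confluent cells kept for 16 h with 1 µM NU7441, a small-molecule inhibitor of the DNA-dependent protein kinase, and the DMSO group (3 samples) had the solvent for the same time. Within each of 3 independent experiments, triplicates were combined ahead of sequencing, per the series' design text, which ties no sample number to an experiment, so each p-value reflects only how far these samples spread, which may be technical variation.

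Wnt proteins are secreted signals that bind Frizzled receptors and the co-receptors Lrp5 and Lrp6. In the canonical branch this stabilises beta-catenin, which enters the nucleus and joins TCF/LEF factors on DNA. The pathway is held in check outside the cell by secreted proteins that catch the ligand or occupy the co-receptor, and inside the cell by negative regulators whose own genes are switched on by the signal. In bone, canonical Wnt signalling drives osteoblast formation, and the loss of some secreted antagonists raises bone mass.

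Of the 10 genes, 2 rose with NU7441, 1 fell, 6 were tested without being called, and 1 had too few reads to test. The abundant Sfrp2 and Dkk3, which encode secreted proteins, rose by 1.22-fold and 1.25-fold (log2 fold changes 0.29 ± 0.03 and 0.32 ± 0.03, SE). Nkd2, an intracellular brake at a low level, fell to 0.966 ± 0.309 CPM (counts scaled to library size, mean ± SD, n = 3) in NU7441 cells, against 1.73 ± 0.125 in DMSO cells. Axin2, the most used readout of canonical signalling, averaged 20.3 ± 1.39 CPM in NU7441 cells and 22.3 ± 0.334 in DMSO cells, a difference that missed the threshold (edgeR, adjusted p = 0.0626). The test was edgeR's quasi-likelihood test over 13784 genes with Benjamini-Hochberg adjustment, and a gene was called at an adjusted p under 0.05. By that rule 30.7% of all tested genes were called, 14.1% higher and 16.6% lower in NU7441, so 3 of 9 members called is a share near the background. Of all calls 45.9% were higher, and 56.5% with upper-quartile scaling.

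Sample totals lay between 52150994 and 55021692 counts in the NU7441 group and between 47312968 and 71292628 in the DMSO group, and every deposited count was even, so the counts printed here may be double the number of sequenced fragments. All 8 pre-osteoblast markers averaged at least 1 CPM, and their sum, 42979.6 to 44041 CPM in NU7441 samples and 41702 to 43943 in DMSO samples, was mostly Col1a1 and Col1a2. Of the 8, Spp1 (log2 fold change 0.25) and Col1a2 (0.05) rose, Alpl fell by 0.29, and Ibsp, which encodes bone sialoprotein, fell to 7.09 ± 1.94 CPM in NU7441 cells, against 13.1 ± 1.80 in DMSO cells. The 6 chondrocyte markers summed to 89.5 to 93.8 CPM in NU7441 samples and 82.2 to 83.9 in DMSO samples, with Acan at 0 in every sample. Sox9 (79.3 CPM in NU7441 cells and 72.2 in DMSO cells) and Col2a1 (9.94 and 8.49) rose. The 5 osteocyte markers summed to 2.45 to 3.53 CPM in NU7441 samples and 2.31 to 2.37 in DMSO samples, with Sost at 0 in every sample, and Dmp1 rose (2.08 CPM in NU7441 cells and 1.34 in DMSO cells). The 7 blood and osteoclast markers summed to 6.82 to 7.57 CPM in NU7441 samples and 7.56 to 7.75 in DMSO samples, mostly Lyz2, with Ptprc at 0 in every sample. The lists for fat, endothelial, muscle and epithelial cells each summed to under 4 CPM in every sample. The 10 genes marking dividing cells, among them Mki67 and Top2a, all fell, and their summed level was 372.5 to 458 CPM in NU7441 samples and 1040.2 to 1189 CPM in DMSO samples. The part of these marker differences in the results below was not tested, and in bulk RNA fewer cells of a kind and less RNA per cell cannot be told apart.

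Promoter sequence from RefSeq (build GRCm38.p6) was available and used for 7 of the 10 genes. It is shown for Sfrp2, which rose, for Nkd2, which fell, and for Axin2 and Dkk2, as the 200 bases that end just before the annotated start, 5′ to 3′ on the strand of the gene. In each of these 4 genes that start is the gene boundary in the deposited table. Capitals mark the letters GGGCGG or their reverse complement (GC box) and TATAAA in the direction of transcription.
Sfrp2: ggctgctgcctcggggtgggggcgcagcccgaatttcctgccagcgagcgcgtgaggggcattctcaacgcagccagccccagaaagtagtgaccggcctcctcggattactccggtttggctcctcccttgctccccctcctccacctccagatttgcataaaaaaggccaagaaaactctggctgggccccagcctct
Nkd2: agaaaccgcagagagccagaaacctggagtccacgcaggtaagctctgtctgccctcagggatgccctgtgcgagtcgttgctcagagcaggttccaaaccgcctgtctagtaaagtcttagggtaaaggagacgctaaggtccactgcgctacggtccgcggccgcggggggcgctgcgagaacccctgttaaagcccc
Axin2: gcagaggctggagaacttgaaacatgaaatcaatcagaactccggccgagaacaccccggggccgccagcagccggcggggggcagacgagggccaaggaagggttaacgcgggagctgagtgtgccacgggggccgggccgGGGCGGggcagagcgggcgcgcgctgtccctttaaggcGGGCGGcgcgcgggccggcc
Dkk2: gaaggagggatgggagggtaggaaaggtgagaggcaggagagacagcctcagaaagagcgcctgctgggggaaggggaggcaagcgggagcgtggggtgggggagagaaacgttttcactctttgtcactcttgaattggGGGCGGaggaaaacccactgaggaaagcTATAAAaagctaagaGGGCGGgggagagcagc

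The stretches lie at chr3:83766121-83766320 on the plus strand for Sfrp2, chr13:73847632-73847831 on the minus strand for Nkd2, chr11:108920149-108920348 on the plus strand for Axin2 and chr3:132085092-132085291 on the plus strand for Dkk2. Their GC content was 62.5% for Sfrp2, 60.5% for Nkd2, 72% for Axin2 and 58% for Dkk2, against a median of 53% over 32851 promoter stretches of the same length. Axin2 and Dkk2 each held 2 GC boxes and Dkk2 a TATA box that begins 32 bases before the start, whereas the stretches of Sfrp2 and Nkd2 held neither. Of the other members analysed, Wif1 and Tcf7 (at each of its starts) held GC boxes, Nkd1 held none, and none held a TATA box. A link between these letters and the response to NU7441 was not tested. Of all promoter stretches 31% held a GC box and 6.27% a TATA box. The letters CTTTGAA or CTTTGAT, forms of the TCF/LEF motif searched on both strands, were in 5.73% of all stretches and in no stretch of the 7 members. That says only that these letters are not in these 200 bases.

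The members covered a wide range of levels. Per kilobase of gene length, in the authors' deposited RPKM (reads scaled to gene length and library size), Sfrp2 stood highest at 188 ± 5.92 in NU7441 cells and 158 ± 4.99 in DMSO cells (mean ± SD, n = 3 each). Dkk3 followed at 68.5 ± 0.207 RPKM in NU7441 cells and 56.1 ± 1.16 in DMSO cells, then Wif1 at 17.5 ± 0.642 and 18.5 ± 1.25. The intracellular and nuclear members were well below these: Axin2 averaged 3.53 RPKM in NU7441 cells and 3.97 in DMSO cells, and Tcf7 1.13 and 1.51. The order of the 5 highest genes was the same in both groups, with no overlap of sample ranges between neighbours. Below them came Sfrp1, Dkk2 and Nkd2, all under 0.6 RPKM in every sample. In NU7441 cells the ranges of Dkk2 and Nkd2 overlapped, as did those of Nkd2 and Apcdd1. In DMSO cells those of Sfrp1 and Dkk2 overlapped, as did those of Dkk2 and Nkd2. Nkd1 was last in both groups, at 0.0272 RPKM in NU7441 cells and 0.0255 in DMSO cells.

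**Figure D1:**
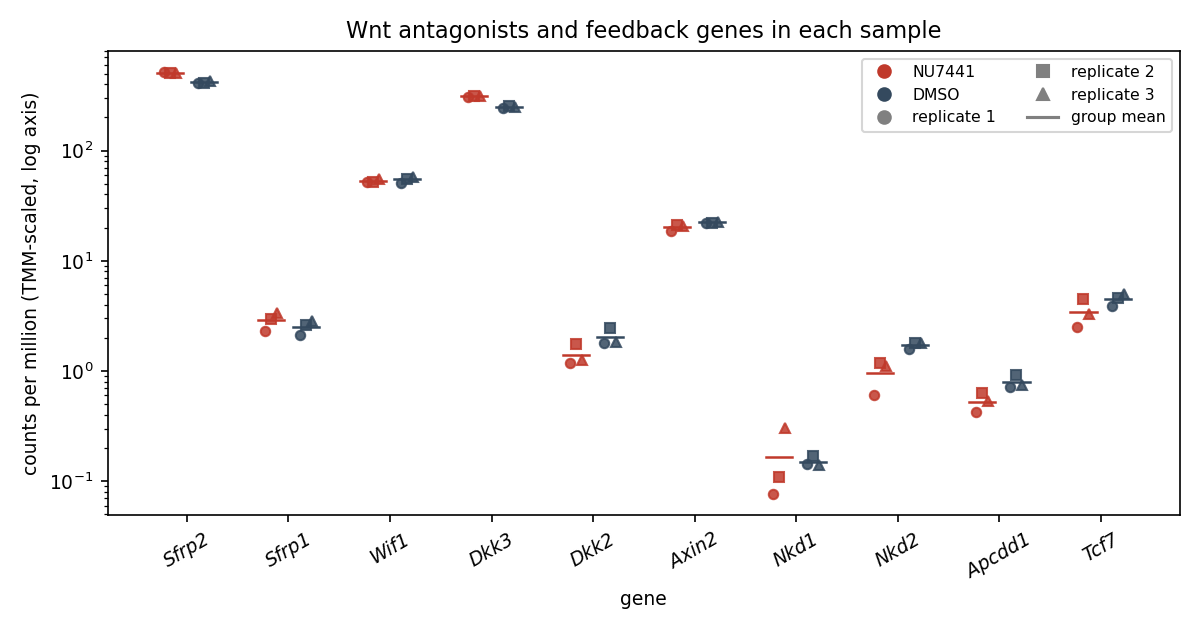
CPM (TMM-scaled, log axis) of the 10 genes in each sample, NU7441 in red left of DMSO in dark blue. Symbols mark replicate numbers and bars group means. Sfrp2 and Dkk3 lie highest, with every NU7441 sample above every DMSO sample, and Nkd1 lies lowest.

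Among the secreted proteins that bind Wnt ligands directly, Sfrp2 rose. Sfrp2 encodes a secreted Frizzled-related protein, built on a Frizzled-like cysteine-rich domain, and its gene has 3 exons (mm10 chromosome 3, 83766321 to 83774314, plus strand). It was measured at 518, 508 and 501 CPM in the NU7441 samples, against 407, 414 and 429 CPM in the DMSO samples. All NU7441 samples were above all DMSO samples, and the gap between the groups was larger than the spread within either. The log2 fold change was 0.29 (95% interval 0.23 to 0.35, edgeR adjusted p = 3.54e-06), and it lay between 0.27 and 0.31 with each sample left out in turn. GENCODE M21 lists an antisense gene, Gm26771, whose span overlaps that of Sfrp2. The counter's strand setting was not stated, so reads from such a gene and its antisense partner cannot be told apart.

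Sfrp1 encodes a protein of the same family (mm10 chromosome 8, 23411502 to 23449632), and its transcript was about as scarce as those of the lower members. It had 2.33, 2.98 and 3.37 CPM in the NU7441 samples, against 2.12, 2.61 and 2.81 CPM in the DMSO samples. The groups overlapped, and the log2 fold change of 0.20 had an interval that spans 0 (-0.16 to 0.55, edgeR adjusted p = 0.416). Leaving out NU7441 replicate 3 gave 0.07, leaving out NU7441 replicate 1 gave 0.33 and leaving out DMSO replicate 1 gave 0.09, with no call in any case. The interval includes the value found for Sfrp2, so a difference between the 2 paralogs in their response was not shown.

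Wif1 encodes Wnt inhibitory factor 1, which binds Wnt ligands through a domain of its own kind (mm10 chromosome 10, 121034004 to 121100642). It had 51.9, 51.6 and 55.4 CPM in the NU7441 samples, against 51.1, 54.7 and 58.2 CPM in the DMSO samples. The groups overlapped across most of their range. With a log2 fold change of -0.05 (95% interval -0.15 to 0.05, edgeR adjusted p = 0.485), its upper bound lay below the lower bounds of Sfrp2 and Dkk3 (0.23 and 0.26).

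The dickkopf proteins act on the co-receptor side: Dkk2 binds Lrp5 and Lrp6, while Dkk3 is a diverged member whose action on Wnt signalling is less settled. Dkk3 (8 exons, mm10 chromosome 7, 112116019 to 112159057, minus strand) rose. It had 306, 313 and 313 CPM in the NU7441 samples, against 243, 252 and 251 CPM in the DMSO samples. The NU7441 samples lay close together and all above the DMSO samples. This was a log2 fold change of 0.32 (95% interval 0.26 to 0.38, edgeR adjusted p = 1.42e-06), between 0.30 and 0.33 with each sample left out.

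Dkk2 (4 exons, mm10 chromosome 3, 132085292 to 132180304, plus strand) pointed the other way and was not called. It had 1.18, 1.76 and 1.26 CPM in the NU7441 samples, from 62 to 96 counts, against 1.80, 2.44 and 1.84 CPM in the DMSO samples, from 100 to 132 counts. The groups did not overlap, but NU7441 replicate 2 came close to the lowest DMSO sample. The log2 fold change was -0.52 (95% interval -0.95 to -0.08, edgeR adjusted p = 0.0698). It passed without NU7441 replicate 2 (adjusted p = 0.0176), with a robust fit (0.0441) and without the low-count filter (0.0392), and its adjusted p reached 0.247 without DMSO replicate 2.

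Summed over the 5 secreted genes Sfrp1, Sfrp2, Wif1, Dkk2 and Dkk3, the deposited RPKM values came to 271.5 to 282 in NU7441 samples and to 227 to 241 in DMSO samples. Sfrp2 made up 68.5% ± 0.711 of that sum in NU7441 cells and 67.6% ± 0.356 in DMSO cells, and Dkk3 24.9% ± 0.458 and 24.1% ± 0.393 (SD, n = 3). The shares of Sfrp2 and of Dkk3 each overlapped between the groups. The share of Wif1 was 6.36% ± 0.285 in NU7441 cells and 7.92% ± 0.294 in DMSO cells, without overlap between samples, while its own level overlapped. Since Sfrp2 and Dkk3 dominate the sum and rose, the share of Wif1 falls by arithmetic even at a constant level. Sfrp1 and Dkk2 each held under 0.3% of the sum in every sample. Sfrp2 and Dkk3 together made up nearly all of the sum, at 93.4% in NU7441 cells and 91.7% in DMSO cells.

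**Figure D2:**
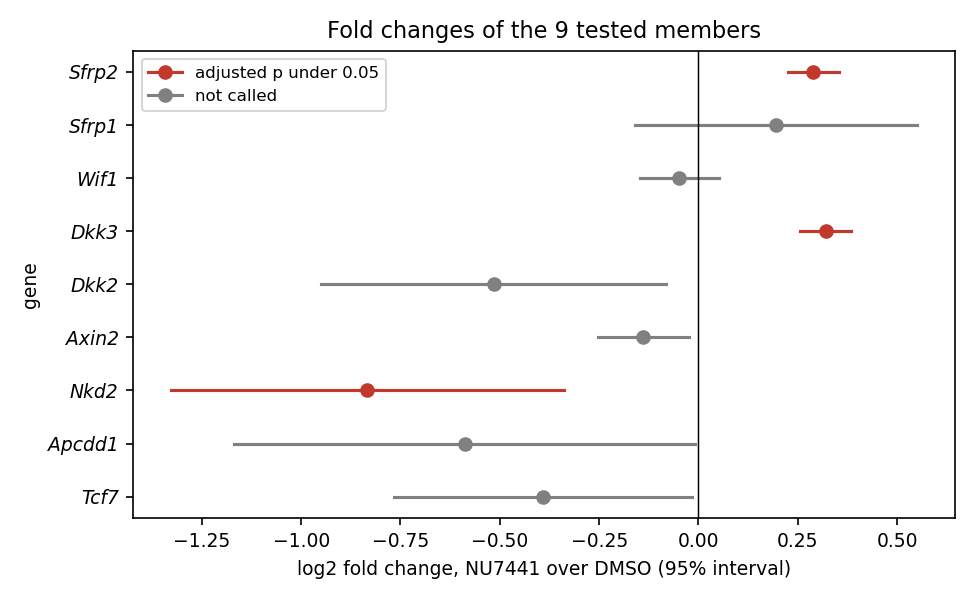
Log2 fold change of NU7441 over DMSO for the 9 tested genes, with 95% intervals from the edgeR fit. Red marks an adjusted p under 0.05: Sfrp2 and Dkk3 lie to the right of 0 with narrow intervals, and Nkd2 to the left with a wide one. The intervals are not adjusted for the number of genes tested. Those of Axin2, Dkk2, Apcdd1 and Tcf7 also lie wholly left of 0, though these genes were not called.

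Among the intracellular brakes, Nkd2 fell. The naked cuticle proteins Nkd1 and Nkd2 bind Dishevelled, the adaptor below Frizzled, and dampen the signal. Nkd2 (10 exons, mm10 chromosome 13, 73819328 to 73847631, minus strand) had 0.611, 1.18 and 1.11 CPM in the NU7441 samples, against 1.58, 1.81 and 1.78 CPM in the DMSO samples. These are 32, 64 and 58 deposited counts in NU7441 and 88, 86 and 128 in DMSO, so all NU7441 samples were lower, with NU7441 replicate 1 the lowest. The log2 fold change of -0.83 (0.561-fold; 95% interval -1.33 to -0.34) had an edgeR adjusted p of 0.0129. It was closest to 0 without NU7441 replicate 1 (-0.59), and with each sample left out the adjusted p stayed between 0.0077 and 0.0495. GENCODE M21 lists a processed pseudogene, Gm8062, on the other strand, whose span overlaps that of Nkd2.

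Nkd1 (mm10 chromosome 8, 88521344 to 88594887) was close to undetected. It had 4, 6 and 16 counts in the NU7441 samples, against 8, 8 and 10 counts in the DMSO samples, and was removed by the low-count filter. Both groups summed to 26 counts, so at this depth a difference of the size seen for Nkd2 could not be judged for its paralog.

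Axin2 encodes a scaffold of the complex that destroys beta-catenin, and its gene is itself a direct target of beta-catenin and TCF (11 exons, mm10 chromosome 11, 108920349 to 108950781, plus strand). It had 18.7, 21.3 and 20.8 CPM in the NU7441 samples, against 22.2, 22.1 and 22.7 CPM in the DMSO samples. The groups did not overlap, and NU7441 replicate 1 stood apart as the lowest. The log2 fold change was -0.14 (95% interval -0.25 to -0.02, edgeR adjusted p = 0.0626). The call moved with the scaling, since the adjusted p was 0.0315 with library size only and 0.128 with upper-quartile scaling. It was 0.0491 without NU7441 replicate 2, and without NU7441 replicate 1 the log2 fold change was -0.08 (adjusted p = 0.24). The antisense gene Gm11670 and the microRNA gene Mir684-1 overlap the Axin2 locus.

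Apcdd1 encodes a membrane glycoprotein that binds Wnt ligands and Lrp5 at the cell surface (mm10 chromosome 18, 62922327 to 62953195). It had 0.420, 0.625 and 0.536 CPM in the NU7441 samples, against 0.720, 0.927 and 0.752 CPM in the DMSO samples. The groups did not overlap, but no sample held more than 54 counts. Its log2 fold change was -0.59 (95% interval -1.17 to -0.01, edgeR adjusted p = 0.12), and it was not called under any alternative tried.

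Tcf7 encodes TCF1, a DNA-binding partner of beta-catenin that is also a target of the pathway (mm10 chromosome 11, 52252604 to 52282571, minus strand). It had 2.48, 4.48 and 3.26 CPM in the NU7441 samples, against 3.89, 4.55 and 4.96 CPM in the DMSO samples. NU7441 replicate 2 lay within the DMSO range and the other NU7441 samples below it. Its log2 fold change was -0.39 (95% interval -0.77 to -0.02, edgeR adjusted p = 0.109). Without NU7441 replicate 2 it was -0.64 (adjusted p = 0.00636), and without NU7441 replicate 1 it was -0.21 (adjusted p = 0.347). Tcf7 makes long forms and short forms that lack the beta-catenin binding part, which gene counts do not separate, and 2 other genes overlap it, A630014C17Rik in antisense and the long noncoding RNA gene Gm26551 on the same strand.

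**Figure D3:**
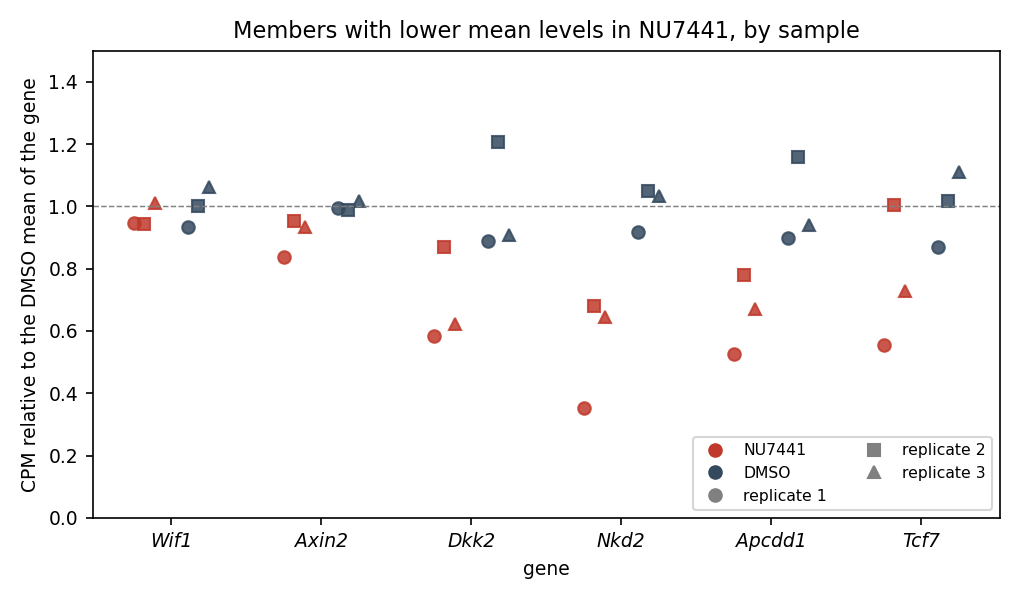
CPM of the 6 tested genes with a log2 fold change below 0 in each sample, divided by the mean of the DMSO samples for that gene, with NU7441 in red left of DMSO in dark blue. NU7441 replicate 1 (circle) is the lowest point and replicate 2 (square) the highest NU7441 point for 5 of the 6 genes, with Wif1 as the exception.

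Of the 6 tested members with a log2 fold change below 0, 5 had their lowest NU7441 level in replicate 1 and their highest in replicate 2. These were Axin2, Dkk2, Nkd2, Apcdd1 and Tcf7, while Wif1 was lowest in replicate 2 and highest in replicate 3. The dividing-cell markers summed to 458, 397 and 372.5 CPM in NU7441 replicates 1, 2 and 3, and their part in these differences between samples was not tested. Leaving out NU7441 replicate 2 brought the number of members called lower to 4 (Axin2, Dkk2, Nkd2 and Tcf7), against 1 with all samples. With any other sample left out the number stayed at 1. Over all genes, 1918 of 13957 were called lower without that replicate, against 2290 of 13784 with all samples. Replicate 2 was the highest NU7441 sample for these 4 genes, so leaving it out lowers their NU7441 means by construction. Of the 9 tested members 6 did not overlap between the groups, where 42.8% of all tested genes did not overlap.

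**Figure D4:**
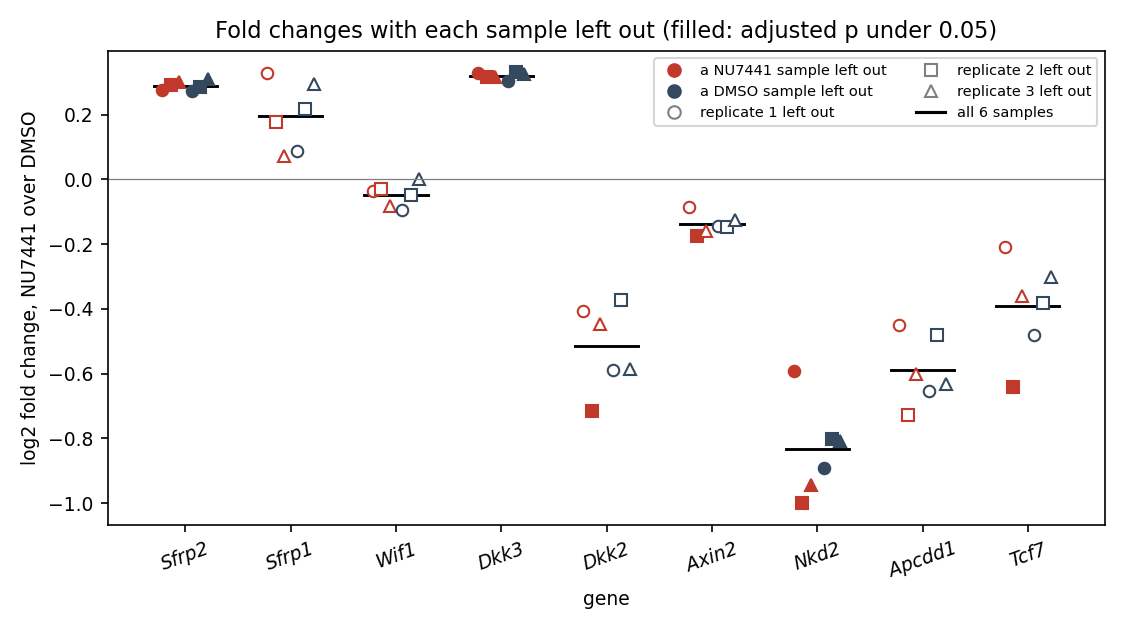
Log2 fold change of each tested gene with all 6 samples (bar) and with 1 sample left out (symbols, red for a NU7441 and dark blue for a DMSO sample), filled where the adjusted p was under 0.05. Sfrp2, Dkk3 and Nkd2 are filled throughout, while Axin2, Dkk2 and Tcf7 are filled only where NU7441 replicate 2 (red square) was left out.

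Of the members averaging at least 10 CPM, the gene with the most similar profile over the 6 samples was found by the root mean square difference of centred log2 CPM. It was Mapk8ip1, a scaffold of JNK signalling, for Sfrp2 (0.0083 on the log2 scale, where the median over 8461 genes was 0.157). For Dkk3 it was Itga1, an integrin subunit of collagen receptors (0.011, median 0.171). For Axin2 it was Xpnpep3, a mitochondrial aminopeptidase (0.016, median 0.114), and for Wif1 it was Tarsl2, a threonyl-tRNA synthetase (0.015, median 0.098). The 6 samples fall in 2 groups, and the differences between the groups enter this measure. The nearest of 8461 genes lies below the median by selection, so that gap shows no special link. Other genes could be almost as near, as Snhg1 was for Wif1 (0.0152, against 0.0147 for Tarsl2).

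The rest of the pathway was described by 120 genes in 7 lists, of which 114 had a row and 91 were tested. Of these 18 rose and 10 fell, 30.8% of those tested, again near the background of 30.7%, and their median log2 fold change was 0.04, against 0.01 for all tested genes. The median of the 9 tested members was -0.14, which is the value of Axin2, a gene not called. Of the 9, 6 lay below 0, of which only Nkd2 was called. The other 3 lay above 0, of which Sfrp2 and Dkk3 were called.

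On the signal-sending and receiving side, 1 of 11 tested genes for ligands and their secretion was called, Wnt9a, at 11.3 ± 0.601 CPM in NU7441 cells and 9.34 ± 0.234 in DMSO cells (log2 fold change 0.27 ± 0.07, edgeR adjusted p = 0.00822). Of 15 tested receptor genes 6 rose and 1 fell. Lrp6, the co-receptor that Dkk2 binds, was at 395 ± 7.46 CPM in NU7441 cells and 323 ± 5.26 in DMSO cells (0.29 ± 0.03, adjusted p = 3.72e-06), Fzd5 rose by 0.28, and Ror2, a receptor for non-canonical Wnts, fell by 0.27. In the R-spondin axis, which keeps receptors at the surface, Rspo2 rose (0.19 ± 0.05, adjusted p = 0.00568) and the other 6 tested genes were not called.

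Antagonists outside the 10 members went both ways. Of 17 with a row, 8 were tested, of which 2 rose and 1 fell. Kremen1, which takes up Lrp6 together with dickkopf proteins, was at 112 ± 1.19 CPM in NU7441 cells and 100.1 ± 0.833 in DMSO cells (log2 fold change 0.17 ± 0.03, edgeR adjusted p = 0.000538). Tmem88, a membrane protein that binds Dishevelled, also rose (0.26 ± 0.07), at a locus it shares with Lsmd1. Notum, a secreted enzyme that strips the lipid from Wnt ligands and a feedback target like Axin2, fell to 4.64 ± 0.122 CPM in NU7441 cells, against 6.27 ± 0.283 in DMSO cells (-0.43 ± 0.10, adjusted p = 0.00288).

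Of 21 tested genes of beta-catenin turnover 3 rose, among them Tnks, a tankyrase that marks Axin proteins for degradation (0.16 ± 0.03, edgeR adjusted p = 0.000766), and Csnk1d (0.09 ± 0.03). Of 14 nuclear factors other than Tcf7, Tle2 rose (0.14 ± 0.05), Cby1, an inhibitor that binds beta-catenin, fell by 0.27, and Aes, a short relative of the TLE co-repressors, fell by 0.14. Among other Wnt targets 4 of 15 tested rose and 6 fell. Ccnd1, which encodes cyclin D1, was at 249 ± 4.8 CPM in NU7441 cells and 330 ± 11.4 in DMSO cells (-0.41 ± 0.03, adjusted p = 2.99e-07) and Myc fell by 0.32, while Gas6 (0.26 ± 0.03) and Bmp4 (0.29 ± 0.04) rose. Ccnd1 and Myc are also genes of the cell cycle, and the dividing-cell markers fell in the same samples. Their part in these falls was not tested.

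**Figure D5:**
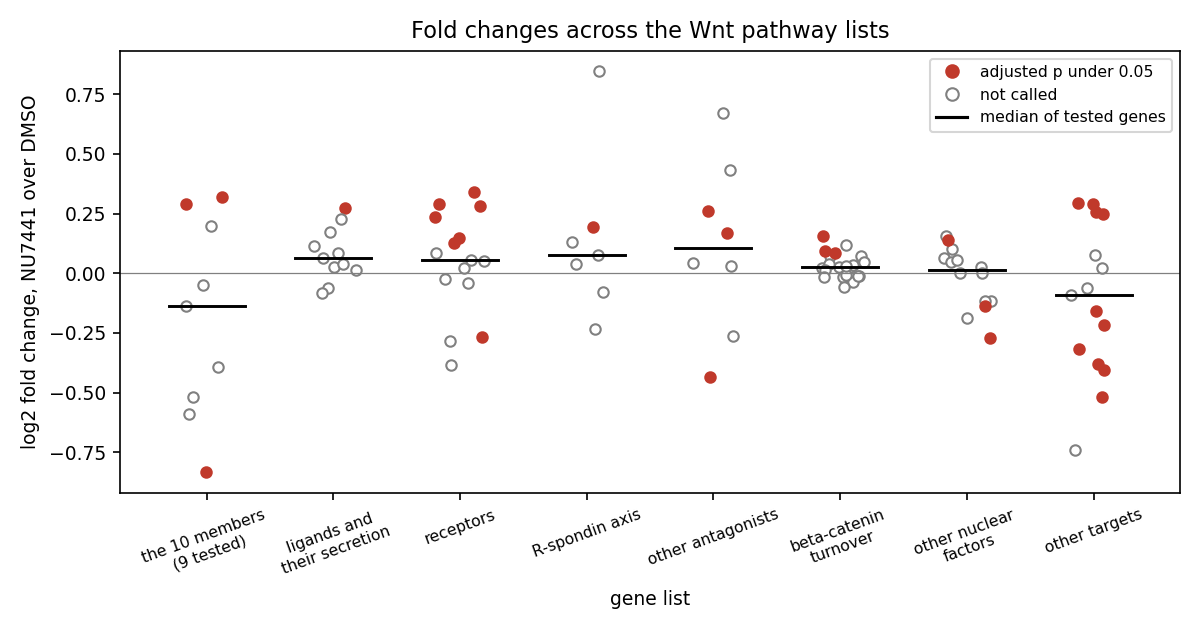
Log2 fold change of NU7441 over DMSO for every tested gene of the 10 members and of 7 lists of other Wnt genes, filled red where the adjusted p was under 0.05, with black bars for medians. The member with the lowest value is Nkd2, and most genes of every list lie within 0.5 of 0.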

How the data were processed

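RNA of 6 samples was compared, 3 with NU7441 and 3 with DMSO. Per the file headers, the authors' table holds for each gene its length and, per sample, 1 count and 1 RPKM. Tools listed in the submitters' processing notes are HTSeq, bcl2fastq and TopHat2 (2.0.6), with mm10 as build; settings and strand are not stated there. In the deposited RPKM, counts are scaled by gene length and a sample total, of which gene counts made up 74.2% to 75.7%. RPKM served only for levels.

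After filterByExpr (at least 10 counts, total at least 15) and TMM scaling, edgeR 4.0.16 (R 4.3.3) gave two-sided quasi-likelihood tests, without further covariates, adjusted over all genes tested. The SE is the log2 fold change divided by the root of the F statistic, and CPM uses scaled library sizes. The procedure was tested on simulated data, where changes were placed only in genes with higher average counts than Nkd2, Dkk2 and Apcdd1. Recovery of changes at such low counts was not tested. No 2 replicates were near enough to be 1 library deposited again. The members and lists were chosen with earlier results of these data known. Beyond the members, up to 2 called genes per list and direction, by lowest adjusted p, are named, plus the nearest profile (prior count 2) of each member averaging 10 CPM and, after their values were seen, marker genes. Alternatives were other scalings, no filter, DESeq2 1.42.0, a replicate block, halved counts, a robust fit and each sample left out. Promoters of Dkk3, Sfrp1 and Apcdd1 were not analysed here.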

Additional observations from a re-analysis of the deposited data

How the results depend on the processing

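Sfrp2 and Dkk3 were called higher and Nkd2 lower under all alternatives run, and the number of members called higher was 2 throughout. The number called lower, 1 as reported, was 2 with library size only (Axin2 added), 2 without the low-count filter and 2 with a robust fit (Dkk2 added in both), and between 1 and 4 with each sample left out. With the replicate block it was 4 (Axin2, Dkk2, Nkd2 and Tcf7), and 5120 genes were called in all, against 4231. The labels do not say that equal numbers pair samples, so the block is not the reported fit. Deviations from the group means correlated across genes at 0.31, 0.24 and 0.05 for numbers 1, 2 and 3. For unequal numbers the correlations lay between -0.33 and 0.12. NU7441 replicate 3 correlated about equally with DMSO replicate 1 (0.052) and with its own number (0.049). These values do not settle whether the samples were paired. Wif1 changed sign among values near 0, between -0.0945 and 0.00031 with each sample left out, the last without DMSO replicate 3. Of the calls over all genes 45.9% were higher, and 56.5% with upper-quartile scaling, which moved no member across the threshold. Halved counts changed no member's call. Counts of 132 or fewer per sample limit Dkk2, Nkd1, Nkd2 and Apcdd1, and RNA levels say nothing of secreted protein. The causes of these dependences were not tested.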
